A study of Mus musculus with 8 samples.

Results

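The 8 genes described here encode the enzymes that prepare and form the covalent crosslinks of collagen: the 5 lysyl oxidases Lox, Loxl1, Loxl2, Loxl3 and Loxl4, and the 3 lysyl hydroxylases Plod1, Plod2 and Plod3. They were picked by name from the 50578 gene identifiers of the count table. Bulk RNA-seq had been performed on wild-type mouse embryonic fibroblasts (MEFs) of C57BL/6J embryos at passage 3 to 5 and on MEFs given CHIR-99021, carbidopa or LY-364947, each at 10 µM, and the 4 groups hold 2 libraries each. The sample labels spell the last compound LY-364747. It is an inhibitor of the TGF-beta type I receptor kinase, CHIR-99021 is an inhibitor of the kinase GSK3, and carbidopa blocks aromatic-L-amino-acid decarboxylase. Each compound was given alone, and the length of treatment of the cells used for RNA-seq is not given in the sources used here, although a time is stated for the cells of the real-time PCR. MEFs were isolated from embryos without head, tail, limbs and internal organs, so the cultures are mixed and are not a clone. No source says whether the libraries of a group came from separate cultures, so p-values measure the spread between these samples, which may be technical. The study asked whether compounds predicted from expression signatures shift MEFs towards hepatocytes, and the labels call the treated cells hepatic-like.

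Lysyl oxidases are secreted copper-dependent amine oxidases. They oxidise lysine and hydroxylysine side chains of collagen, and lysines of elastin, to aldehydes that then condense into crosslinks between neighbouring chains. Lysyl hydroxylases act earlier, in the endoplasmic reticulum, where they hydroxylate lysines of the newly made collagen chain and so set which kind of crosslink can form. Fibroblasts are a main source of both enzyme families in connective tissue, and the stiffness of a fibroblast matrix depends on them.

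The libraries held between 15039566 and 20504338 counts each, and all 8 genes had enough counts to be tested among 15154 genes. Counts are given as CPM, counts scaled to the size of the library with TMM, and differences as log2 fold changes with their standard error (SE) from edgeR's quasi-likelihood test with Benjamini-Hochberg adjustment over the 15154 genes. A gene is said to rise or fall where the adjusted p was under 0.05. The 3 comparisons with MEF share the same MEF libraries, and so are not independent of each other. The 12 fibroblast markers were all detected and summed to 16418 and 16644 CPM in MEF, and to between 6052 and 8315 CPM in the treated libraries. This sum includes the collagen genes Col1a1, Col1a2 and Col3a1, with means of 4018, 3855 and 1477 CPM in MEF. Of the 12 markers, 10 fell and 1 rose in each comparison with MEF. Of all genes tested, 17.2% to 20.1% fell and 13.7% to 18.7% rose in these comparisons. The 13 macrophage markers summed to 1214 and 1258 CPM in MEF, to 397 and 380 CPM with carbidopa, 282 and 292 CPM with LY-364947, and 92.1 and 99.4 CPM with CHIR-99021. The 14 hepatocyte markers were too scarce to be tested, and 7 to 10 of them, in every library, were at 0. In MEF they summed to 14 and 15 counts (1.04 and 0.968 CPM). In the treated libraries they summed to 29 to 41 counts (1.54 to 1.91 CPM). The paper reported higher Alb and Hnf4a, both in this list, by real-time PCR after these compounds. It also reported an epithelial-like shape, staining for fat droplets and glycogen, and RNA-seq profiles that clustered near hepatic progenitor-like cells. The few counts here do not settle the label hepatic-like. The 8 epithelial markers were scarce but higher after treatment, with 6.25 and 4.39 CPM in sum in MEF and 10.2 to 21.6 CPM in the treated libraries. Of the 4 that could be tested, 1 rose and 1 fell with carbidopa, likewise with LY-364947, and 3 rose and 1 fell with CHIR-99021. The 6 endothelial markers summed to 19.6 and 16.8 CPM in MEF and to 11.3 to 15.6 CPM in the treated libraries. The part that the changes of these markers have in the values below was not tested. In bulk RNA, fewer cells of a type cannot be told apart from less RNA per cell. The carbidopa libraries differed most from each other, with a chi-square per degree of freedom of 34.6 between their counts, against 4.31 for MEF, 7.25 for LY-364947 and 9.21 for CHIR-99021.

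The lysyl oxidases share their catalytic region, and a stretch of it is shown because it bears on whether reads can be told apart. The 60 bases below surround the longest run of identical coding bases between Loxl2 and Loxl4, which is 23 bases, and include the codons of the copper-binding histidines. The other genes are shown at their best ungapped match. Capitals mark bases that differ from Loxl2, and positions are counted from the first coding base, or for the pseudogene Gm21451 from the first base of its transcript.
Loxl2 (bases 1869 to 1928): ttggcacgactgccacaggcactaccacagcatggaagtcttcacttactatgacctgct
Gm21451 (bases 2078 to 2137): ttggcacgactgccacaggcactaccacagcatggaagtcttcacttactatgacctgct
Loxl4 (bases 1824 to 1883): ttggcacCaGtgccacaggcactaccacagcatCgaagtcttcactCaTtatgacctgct
Loxl3 (bases 1809 to 1868): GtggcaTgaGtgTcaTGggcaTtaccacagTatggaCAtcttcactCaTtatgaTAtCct
Loxl1 (bases 1431 to 1490): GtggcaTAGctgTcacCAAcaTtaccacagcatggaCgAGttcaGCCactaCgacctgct

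Loxl4 differed from Loxl2 at 5 of the 60 bases, Loxl3 at 15 and Loxl1 at 16. Lox, whose letters are not printed, differed at 14. The stretch was placed around the run shared by Loxl2 and Loxl4 where these 2 match best. The low number for Loxl4 follows from that choice and does not rank the genes by relatedness. The longest coding run identical to Loxl2 was 28 bases in Loxl1, 26 in Loxl3 and 23 in Loxl4. The longest identical coding run between any of the 8 genes was 32 bases, between Lox and Loxl1, so no run of 75 bases was shared within the group. Lox, Loxl1 and Loxl4 shared no 75-base word with any annotated transcript of another gene, and Plod1 shared 0.215% of its words. Loxl2 was the exception: 43.6% of its words occur in other genes, nearly all of them in the unprocessed pseudogene Gm21451, which is identical to it over the 60 bases shown. Gm21451 held 0 to 85 counts per library, at most 0.301% of the Loxl2 counts. Whether reads were lost or moved between the pair cannot be read from the counts, so the level of Loxl2 is uncertain. Most other overlaps lie on opposite strands. Loxl3 shares 535 exon bases with Htra2, Plod3 shares 529 with Znhit1, Plod2 shares 346 with the unclassified transcript Gm38391, Loxl2 shares 301 with the antisense gene Gm27177, and Lox shares 30 with another antisense gene. On the same strand, Loxl2 shares 7 exon bases and Plod3 shares 9 with a microRNA gene each. The strand setting of the counting is not given in the sources used here, so reads of the opposite-strand stretches cannot be assigned to either gene with certainty.

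Lox, the founding member of the family (ENSMUSG00000024529, GRCm38 chr18:52516067-52529867, minus strand), fell with every compound. It had 5674 and 5847 CPM in the MEF libraries, which made it the gene of rank 9 of 15154 by CPM in MEF. It had 808 and 909 CPM with carbidopa, 1085 and 1005 CPM with LY-364947, and 1906 and 2073 CPM with CHIR-99021. All 6 treated libraries lay far below both MEF libraries, and the CHIR-99021 libraries lay above the other treated ones. Lox was 6.71-fold lower with carbidopa (log2 fold change −2.75, SE 0.11, adjusted p = 4.91e-08). It was 5.51-fold lower with LY-364947 (−2.46, SE 0.11, adjusted p = 9.25e-08). With CHIR-99021 it was 2.89-fold lower (−1.53, SE 0.11, adjusted p = 2.05e-06).

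Loxl3 (ENSMUSG00000000693, GRCm38 chr6:83034173-83052562, plus strand), a lysyl oxidase of the developing palate, spine and muscle attachments, fell in the same comparisons from a much lower level. It had 95.9 and 84.0 CPM in MEF, 33.5 and 34.5 CPM with carbidopa, 32.2 and 36.2 CPM with LY-364947, and 50.9 and 49.8 CPM with CHIR-99021. The treated libraries did not overlap with MEF, and those of CHIR-99021 stood between MEF and the other treatments. Loxl3 was 2.64-fold lower with carbidopa (log2 fold change −1.40, SE 0.11, adjusted p = 5.11e-06). The log2 fold change was −1.40 with LY-364947 (SE 0.11, adjusted p = 5.68e-06) and −0.84 with CHIR-99021 (SE 0.11, adjusted p = 0.000184). Htra2, the gene on the other strand, had counts equal to 27.2% to 104% of the Loxl3 counts over the libraries. Its log2 fold change was 0.32 for carbidopa, 0.21 for LY-364947 and 0.56 for CHIR-99021, all opposite in sign to those of Loxl3, and the last alone passed the test (adjusted p = 0.0121).

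Loxl2 (ENSMUSG00000034205, GRCm38 chr14:69609068-69695834, plus strand), which also crosslinks the type IV collagen of basement membranes, rose with every compound. It had 720 and 741 CPM in MEF, 1091 and 1285 CPM with carbidopa, 1315 and 1345 CPM with LY-364947, and 1624 and 1623 CPM with CHIR-99021. No treated library overlapped with MEF, and the order of the 3 treatments was the same in each of their libraries. Loxl2 was 1.63-fold higher with carbidopa (log2 fold change 0.70, SE 0.10, adjusted p = 0.000486). It was 1.82-fold higher with LY-364947 (0.86, SE 0.10, adjusted p = 0.000119) and 2.22-fold higher with CHIR-99021 (1.15, SE 0.11, adjusted p = 1.48e-05). Loxl2 was also counted together with Gm21451 and with Gm16867, which shares 3.21% of the Loxl2 words, a sum added after the data had been seen. The log2 fold changes were then 0.69, 0.85 and 1.15 in the same order. Gm21451 held at most 0.301% and Gm16867 at most 2.82% of the Loxl2 counts. The sum could therefore move the values little, and it does not bring back reads that were not counted.

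Loxl4 (ENSMUSG00000025185, GRCm38 chr19:42593982-42612813, minus strand) rose most of the 8 genes. It was scarce in MEF, with 15.5 and 14.4 CPM from 208 and 223 counts. It had 59.9 and 66.8 CPM with carbidopa, 73.7 and 93.0 CPM with LY-364947, and 84.5 and 85.8 CPM with CHIR-99021. Every treated library was well above both MEF libraries, and the ranges of LY-364947 and CHIR-99021 overlapped. Loxl4 was 4.25-fold higher with carbidopa (log2 fold change 2.09, SE 0.14, adjusted p = 1.42e-06). It was 5.59-fold higher with LY-364947 (2.48, SE 0.14, adjusted p = 4.39e-07) and 5.70-fold higher with CHIR-99021 (2.51, SE 0.14, adjusted p = 3.59e-07).

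The promoter of Loxl4 is shown because this gene had the largest rise of the 8. The RefSeq promoter table of GRCm38.p6 held 3 of the 8 genes, Loxl4, Plod1 and Plod3. The window covers the 250 bases before the RefSeq start of Loxl4, chr19:42612807-42613056 on the minus strand, with a GC content of 76%. Capitals mark matches to the motifs searched.
Loxl4 promoter: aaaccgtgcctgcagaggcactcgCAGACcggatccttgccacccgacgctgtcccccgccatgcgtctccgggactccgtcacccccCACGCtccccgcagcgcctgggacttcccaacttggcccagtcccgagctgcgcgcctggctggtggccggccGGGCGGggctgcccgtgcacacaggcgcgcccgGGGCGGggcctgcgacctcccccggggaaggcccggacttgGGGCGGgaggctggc

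Both strands were searched for 7 motifs. The window held 3 matches to the GC box GGGCGG, 1 to the SMAD core CAGAC and 1 to the aryl hydrocarbon receptor core GCGTG, on the other strand. It held none to the AP-1 site TGANTCA, the hypoxia response core ACGTG, the TCF/LEF core TCAAAG or the TEAD core GGAATG. Among 32851 promoter windows of the same length, 32.7% held the GC box, 42.2% the SMAD core and 28.2% the aryl hydrocarbon receptor core. Such short motifs are common, and a match is a run of letters and not a site shown to be bound.

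Loxl1 (ENSMUSG00000032334, GRCm38 chr9:58287738-58313186, minus strand), the member tied to elastic fibres, did not pass the test in any comparison. It had 276 and 249 CPM in MEF, 265 and 240.3 CPM with carbidopa, 222 and 247 CPM with LY-364947, and 274 and 237 CPM with CHIR-99021. The libraries of carbidopa and CHIR-99021 overlapped with those of MEF, and those of LY-364947 lay just below. The log2 fold change was −0.05 with carbidopa (95% interval −0.31 to 0.20, adjusted p = 0.735 by edgeR's quasi-likelihood test). It was −0.16 with LY-364947 (−0.42 to 0.09, adjusted p = 0.317) and −0.04 with CHIR-99021 (−0.29 to 0.21, adjusted p = 0.813). These intervals leave room for a change of up to 0.42 on the log2 scale.

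**Figure D1:**
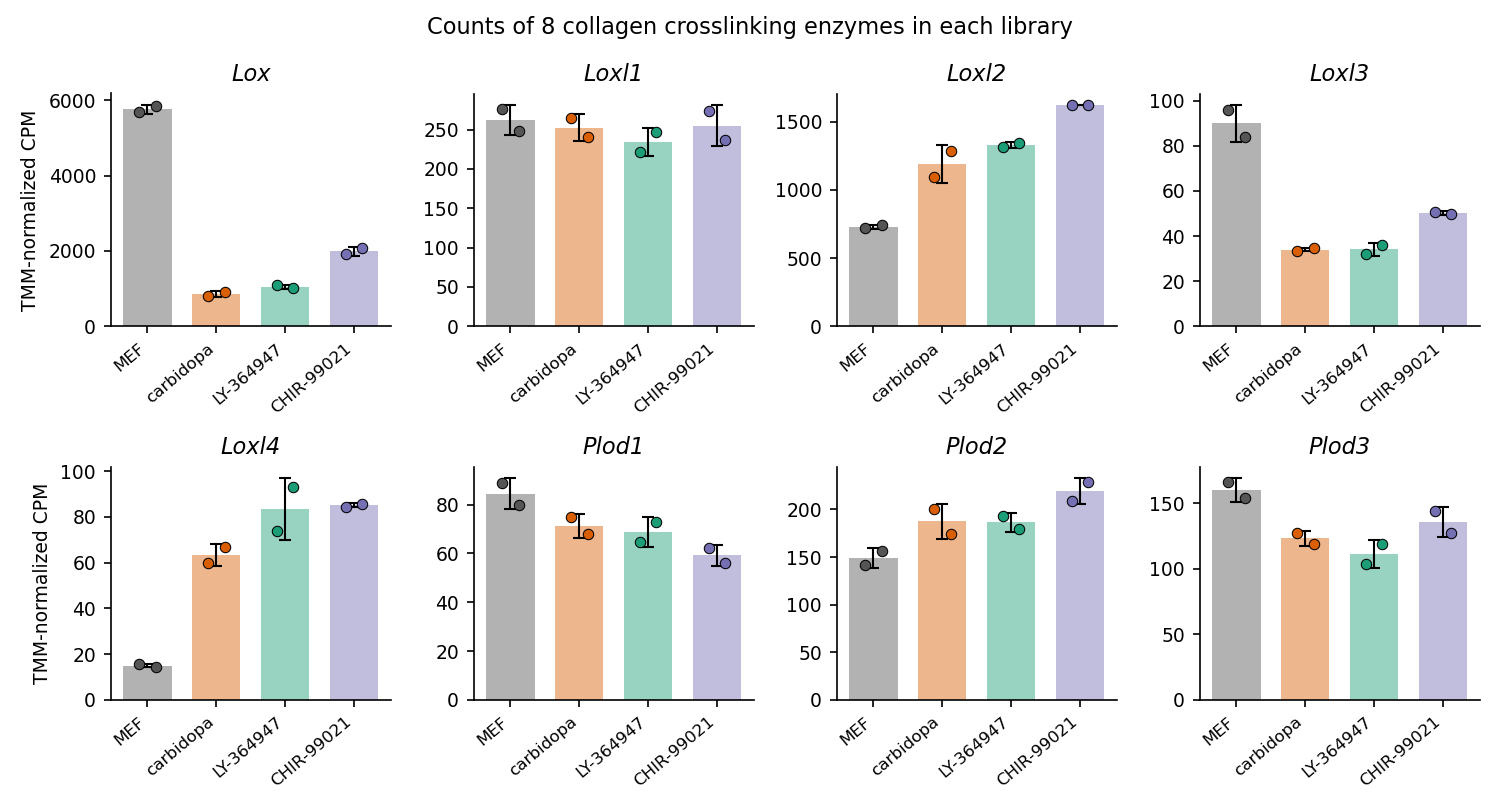
TMM-normalized CPM of the 8 genes (vertical axes, each on its own linear scale from 0) in the 4 groups. Points are the 2 libraries of a group, bars their mean and whiskers the SD. Lox and Loxl3 are highest in MEF, Loxl2, Loxl4 and Plod2 are lowest in MEF, and Loxl1 stays between 222 and 276 CPM in every library.

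Among the lysyl hydroxylases, each compound gave a higher Plod2 and no other rise. Plod2 (ENSMUSG00000032374, GRCm38 chr9:92542223-92608428, plus strand) hydroxylates lysines of the collagen telopeptides, the chain ends from which the stable pyridinoline crosslinks start. It had 142 and 156 CPM in MEF, 200.1 and 175 CPM with carbidopa, 194 and 179.7 CPM with LY-364947, and 209 and 229 CPM with CHIR-99021. Both libraries of each treatment lay above both MEF libraries. Plod2 was 1.47-fold higher with CHIR-99021 (log2 fold change 0.56, SE 0.11, adjusted p = 0.00273). It was 1.26-fold higher with carbidopa (0.33, SE 0.11, adjusted p = 0.0372) and 1.25-fold higher with LY-364947 (0.33, SE 0.11, adjusted p = 0.0460). The calls with carbidopa and LY-364947 were close to the threshold. The first was lost when any library other than carbidopa replicate 2 was left out (adjusted p from 0.0557 to 0.245). The second was lost without any library of MEF, LY-364947 or CHIR-99021 (adjusted p from 0.0695 to 0.292), and both were lost with DESeq2 (adjusted p = 0.0555 and 0.0577).

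Plod3 (ENSMUSG00000004846, GRCm38 chr5:136987019-136996648, plus strand), which also carries the glycosyltransferase activity that adds sugars to hydroxylysine, had its highest values in MEF. It had 167 and 154 CPM in MEF, 127 and 119 CPM with carbidopa, 104 and 119 CPM with LY-364947, and 144 and 127 CPM with CHIR-99021. No treated library reached the lower MEF library. Plod3 was 1.30-fold lower with carbidopa (log2 fold change −0.38, SE 0.11, adjusted p = 0.0230) and 1.44-fold lower with LY-364947 (−0.52, SE 0.11, adjusted p = 0.00509). With CHIR-99021 the log2 fold change was −0.24 (95% interval −0.49 to 0.01, adjusted p = 0.116). The call with carbidopa was lost without MEF replicate 1 (adjusted p = 0.164) or MEF replicate 2 (adjusted p = 0.0700). The call with LY-364947 was lost without MEF replicate 1 (adjusted p = 0.0626) or LY-364947 replicate 1 (adjusted p = 0.0710). With CHIR-99021 the difference passed the test without carbidopa replicate 1 (adjusted p = 0.0469) or carbidopa replicate 2 (adjusted p = 0.0482). Znhit1, on the other strand, had counts equal to 10.7% to 25.8% of those of Plod3.

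Plod1 (ENSMUSG00000019055, GRCm38 chr4:147909753-147936767, minus strand) hydroxylates lysines in the triple helix. It had 89.0 and 79.9 CPM in MEF, 74.8 and 67.9 CPM with carbidopa, 64.5 and 73.0 CPM with LY-364947, and 62.3 and 56.1 CPM with CHIR-99021. All treated libraries were below both MEF libraries, with the smallest gap for carbidopa. It was 1.43-fold lower with CHIR-99021 (log2 fold change −0.51, SE 0.11, adjusted p = 0.00547), a call that was lost without MEF replicate 1 (adjusted p = 0.0677) or CHIR-99021 replicate 2 (adjusted p = 0.0576). With carbidopa the log2 fold change was −0.24 (95% interval −0.50 to 0.01, adjusted p = 0.118). With LY-364947 it was −0.30 (−0.55 to −0.04, adjusted p = 0.0750), and passed the test without carbidopa replicate 1 or 2 (adjusted p = 0.0230 and 0.0238).

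Counted over the 8 genes, each compound gave 3 rises, 3 falls and 2 genes that did not pass the test. Of all genes tested, 37.7% passed with carbidopa (18% higher and 19.7% lower), 31% with LY-364947 (13.7% higher and 17.2% lower) and 38.8% with CHIR-99021 (18.7% higher and 20.1% lower). The median over the 8 genes, as a log2 fold change, was −0.15, −0.23 and −0.14 in the same order, and that of all genes tested was 0.04, 0.03 and 0.04. The enzymes thus changed in both directions, with Lox and Loxl3 falling and Loxl2 and Loxl4 rising under all 3 compounds. Plod2 rose under all 3 as well, but its calls with carbidopa and LY-364947 were lost with DESeq2 and in other alternatives. The calls of Lox, Loxl2, Loxl3 and Loxl4 against MEF held in every alternative, with adjusted p at most 0.0121. Leaving out 1 library gave 4 to 6 called genes with carbidopa and 4 to 7 with LY-364947, and the genes that left or joined were Plod1, Plod2 and Plod3. The lowest count with carbidopa came without MEF replicate 1 or MEF replicate 2, and the lowest with LY-364947 without MEF replicate 1 or LY-364947 replicate 1.

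**Figure D2:**
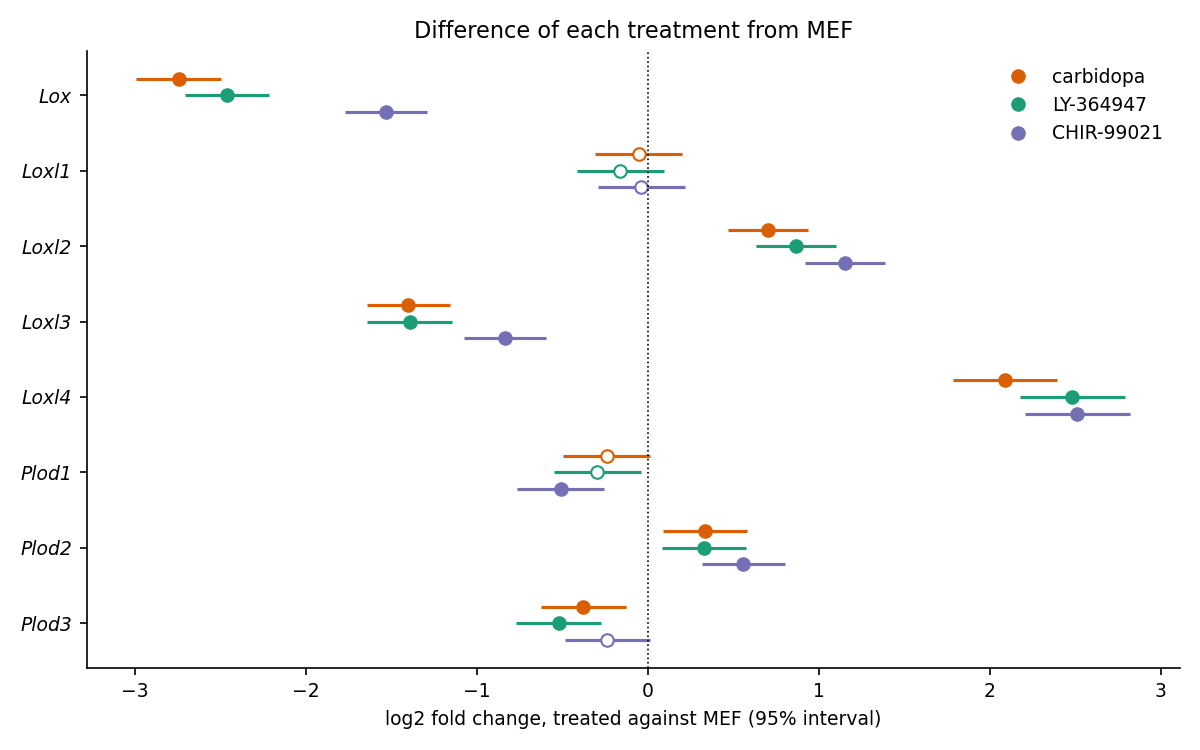
Log2 fold change of each gene (horizontal axis) with each treatment against MEF, with 95% intervals from the edgeR fit. Filled points passed an adjusted p of 0.05 and open points did not. Lox lies at −2.75, −2.46 and −1.53, Loxl4 at 2.09, 2.48 and 2.51, and Loxl1 between −0.16 and −0.04.

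Because levels can be compared between genes only per length, CPM were also divided by the exon length of each gene in kilobases. This length joins the exons of all annotated transcripts of a gene, and which of them the cells expressed was not tested. The orders, sums, shares and ratios between genes that follow depend on these lengths. On this scale MEFs expressed Lox far above the other enzymes, at 1206 CPM per kb (SD 25.7, n = 2), followed by Loxl2 at 135, Loxl1 at 79.6, Plod3 at 35.4, Plod2 at 27.6, Loxl3 at 19.5, Plod1 at 12.5 and Loxl4 at 3.54. With carbidopa the level of Loxl2 was 219.8 CPM per kb (SD 25.4, n = 2) and that of Lox 179.7 (SD 15.0). With LY-364947 the level of Loxl2 was 246 (SD 3.89) and that of Lox 219 (SD 11.9). By these counts and lengths Loxl2 stood above Lox in those libraries. Its level is uncertain because of the words it shares with Gm21451, and other lengths could change this order. With CHIR-99021 Lox was first by the same counts at 416 CPM per kb (SD 24.7), and Loxl2 followed at 300.4 (SD 0.0735). With these lengths, the library ranges of neighbours in this order overlapped in no group. Loxl4, the lowest in MEF, stood above Loxl3 and Plod1 in all 3 treated groups, at 15.0, 19.8 and 20.2 CPM per kb.

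The lysyl oxidases together summed to 1429 and 1458 CPM per kb in MEF. The sum was 473 and 524 in the carbidopa pair, 562 and 564 in the LY-364947 pair and 813 and 837 in the CHIR-99021 pair, so every treated library held less than either MEF library. Lox made up 83.1% and 83.9% of the sum in MEF. Its share was 35.8% and 36.3% in the carbidopa pair, 40.4% and 37.3% in the LY-364947 pair and 49.0% and 51.8% in the CHIR-99021 pair. The share of Loxl2 went from 9.32% and 9.40% in MEF to 42.7% and 45.4% in the carbidopa pair, 43.3% and 44.1% in the LY-364947 pair and 36.9% and 35.9% in the CHIR-99021 pair. Loxl1 took 5.17% to 5.86% in MEF and 8.58% to 17.0% in the treated libraries, although its own level did not pass the test. Loxl4 went from at most 0.257% to between 2.43% and 3.91%. Loxl3, which fell along with Lox, kept a share of 1.24% to 1.54% in all 8 libraries. These sums and shares all include Loxl2, whose level is uncertain because of the words it shares with Gm21451. They also depend on the exon lengths used.

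**Figure D3:**
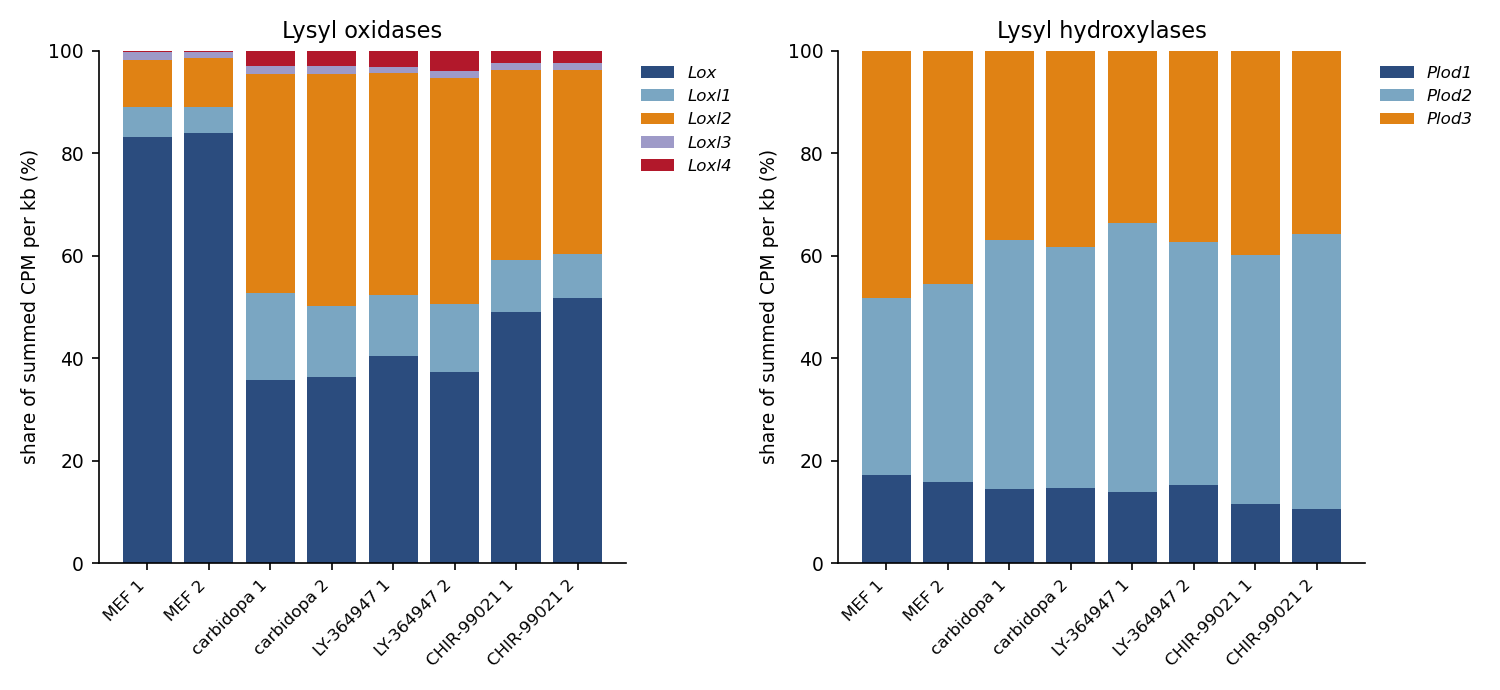
Share (percent, vertical axes from 0 to 100) of each gene in the summed CPM per kb of its family, in each of the 8 libraries. The level of Loxl2, and with it every share of the lysyl oxidases, is uncertain because of the words it shares with Gm21451. All shares also depend on the exon lengths used. On the left, Lox goes from over 83% in MEF to at most 51.8% in treated libraries while Loxl2 goes from under 9.5% to at least 35.9%, and on the right, Plod2 has its lowest shares, 34.4% and 38.7%, in MEF.

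The lysyl hydroxylases summed to 68.4 to 79.9 CPM per kb over all 8 libraries, with the 2 MEF libraries at 76.3 and 74.8 inside that range. Within this sum Plod3 led in MEF, with 48.3% and 45.5%, and Plod2 had 34.4% and 38.7%. In the treated libraries Plod2 led, with 47.1% to 53.8%, and Plod3 had 33.6% to 39.9%. The ratio of Plod2 to Plod1 per length was 2.00 and 2.45 in MEF. It was 3.36 and 3.23 in the carbidopa pair, 3.77 and 3.09 in the LY-364947 pair and 4.22 and 5.12 in the CHIR-99021 pair.

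The enzymes were also set against their fibrillar collagen substrates. Col1a1, the alpha 1 chain of type I collagen, had 4076 and 3960 CPM in MEF. It had 688 and 666 in the carbidopa pair, 2232 and 1697 in the LY-364947 pair and 1387 and 1386 in the CHIR-99021 pair. The ratio of Lox to Col1a1 per length was 1.91 and 2.03 in MEF, 1.61 and 1.87 with carbidopa, and 1.89 and 2.06 with CHIR-99021. With LY-364947, where Col1a1 fell least, the ratio was 0.668 and 0.814. Against Col3a1, the chain of type III collagen, the order was another. The ratio of Lox to Col3a1 was 8.30 and 7.75 in MEF, 2.78 and 3.39 in the carbidopa pair, 2.96 and 2.77 in the LY-364947 pair and 6.56 and 7.22 in the CHIR-99021 pair. The ratio of Loxl2 to Col1a1 was 0.214 and 0.227 in MEF and higher in every treated library. It was 1.92 and 2.34 in the carbidopa pair, 0.716 and 0.963 in the LY-364947 pair and 1.42 and 1.42 in the CHIR-99021 pair. The ratio of Loxl2 to Lox was 0.112 in both MEF libraries, and it was 1.19 and 1.25 in the carbidopa pair, 1.07 and 1.18 in the LY-364947 pair and 0.753 and 0.692 in the CHIR-99021 pair. These ratios are given as a description without a test. Those with Loxl2 carry the uncertainty of its level, and all depend on the exon lengths used.

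Between carbidopa and LY-364947 none of the 8 genes passed the test by edgeR, nor did any by DESeq2, and 2 had an unadjusted p under 0.05. Among all genes tested, 0.0132% passed. The 2 genes were Lox, with a log2 fold change of LY-364947 against carbidopa of 0.28 (95% interval 0.05 to 0.52), and Loxl4, with 0.40 (0.12 to 0.67), each with an adjusted p of 0.519. Their libraries did not overlap, nor did those of Loxl2 (log2 fold change 0.16, 95% interval −0.07 to 0.39). How often libraries of these groups did not overlap over all genes was not counted. Without carbidopa replicate 2, Lox (0.37, adjusted p = 0.00966), Loxl2 (0.28, adjusted p = 0.0170) and Loxl4 (0.48, adjusted p = 0.0209) passed the test as higher with LY-364947. A difference between these treatments was therefore not settled for those 3 genes.

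Against carbidopa, CHIR-99021 gave higher values of 4 lysyl oxidases and a lower value of none of the 8 genes. Of all genes tested, 14.7% passed in this comparison (6.62% higher and 8.08% lower). Lox was 2.32-fold higher (log2 fold change 1.21, SE 0.11, adjusted p = 8.63e-05). Loxl3 was 1.48-fold higher (0.57, SE 0.11, adjusted p = 0.00756), Loxl2 1.37-fold higher (0.45, SE 0.10, adjusted p = 0.0172) and Loxl4 1.34-fold higher (0.43, SE 0.12, adjusted p = 0.0451). The call of Lox held without any 1 library. The call of Loxl3 was lost without CHIR-99021 replicate 1 (adjusted p = 0.0716). That of Loxl2 was lost without CHIR-99021 replicate 1 (adjusted p = 0.104), CHIR-99021 replicate 2 (adjusted p = 0.0773) or MEF replicate 2 (adjusted p = 0.0515), and in a fit of the 2 groups alone (adjusted p = 0.128). That of Loxl4 was lost without either MEF library, either CHIR-99021 library or carbidopa replicate 1 (adjusted p from 0.0758 to 0.196), so the count of 4 went as low as 1. Plod1 passed as lower without carbidopa replicate 2 (adjusted p = 0.0426), and Plod2 as higher without carbidopa replicate 1 (adjusted p = 0.0333).

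Against LY-364947, CHIR-99021 gave higher Lox and Loxl3. Of all genes tested, 14.1% passed (6.45% higher and 7.69% lower). Lox was 1.90-fold higher (log2 fold change 0.93, SE 0.11, adjusted p = 0.000378), and this call held without any 1 library. Loxl3 was 1.47-fold higher (0.56, SE 0.11, adjusted p = 0.00848), a call lost without CHIR-99021 replicate 1 (adjusted p = 0.0804) or LY-364947 replicate 1 (adjusted p = 0.131). Loxl2 had a log2 fold change of 0.29 (95% interval 0.06 to 0.52, adjusted p = 0.0962), and Loxl4 of 0.03 (−0.24 to 0.30, adjusted p = 0.899). Without carbidopa replicate 1 or 2, which belong to neither group of this comparison but share its fit, Loxl2, Plod2 and Plod3 passed as well and the count went from 2 to 5. The adjusted p was then 0.00375 and 0.00381 for Loxl2, 0.0420 and 0.0429 for Plod2, and 0.0347 and 0.0360 for Plod3. The 2 genes that fell with every compound, Lox and Loxl3, thus stood nearer to the MEF level with CHIR-99021 than with carbidopa or LY-364947. In the same libraries the macrophage markers were lowest with CHIR-99021, at 92.1 and 99.4 CPM in sum, and their part in this order was not tested.

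**Figure D4:**
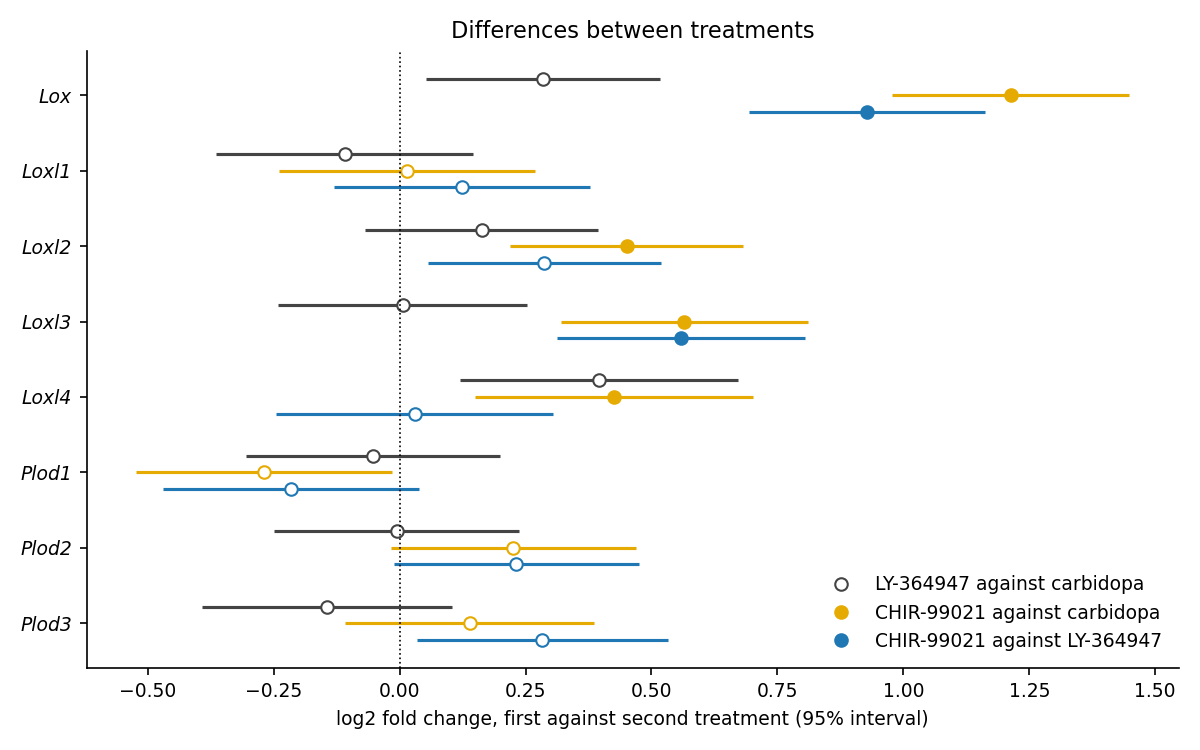
Log2 fold change of each gene (horizontal axis) between treatments, with 95% intervals from the edgeR fit. Filled points passed an adjusted p of 0.05 and open points did not. CHIR-99021 stands at 1.21 and 0.93 for Lox and at 0.57 and 0.56 for Loxl3 against carbidopa and LY-364947, and all points of LY-364947 against carbidopa are open.

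The substrates of the enzymes fell with every compound. Beside the counts of the lists below stand the shares of all genes tested that fell, 19.7%, 17.2% and 20.1%, and that rose, 18%, 13.7% and 18.7%, in the same order of compounds as above (carbidopa first, CHIR-99021 last). Of 11 fibrillar and basement membrane collagen chains and elastin, 10 could be tested, and all 10 fell in each comparison with MEF, with a median log2 fold change of −1.90 for carbidopa, −1.63 for LY-364947 and −1.62 for CHIR-99021. Col1a2, the alpha 2 chain of type I collagen, had 3845 and 3864 CPM in MEF and 763 to 1072 CPM in the treated libraries. Eln, which encodes elastin, had 114 and 128 CPM in MEF and at most 0.842 CPM in any treated library, with log2 fold changes of −7.85 with carbidopa (adjusted p = 2.42e-09), −7.45 with LY-364947 (adjusted p = 2.77e-09) and −7.32 with CHIR-99021 (adjusted p = 4.90e-09). Col11a1, a minor fibrillar chain that nucleates fibrils, had log2 fold changes of −4.31, −3.99 and −3.29 (SE 0.13, 0.12 and 0.12). Col1a1, Col1a2 and Col3a1 are also in the fibroblast marker list, whose sum fell as given above.

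Genes whose products assemble the fibres that lysyl oxidases act on fell as well, 9 of 10 with carbidopa, 9 of 10 with LY-364947 and 10 of 10 with CHIR-99021. Bgn, the small proteoglycan biglycan, went from 9201 and 9974 CPM in MEF to 378 and 449 in the carbidopa pair, 547 and 520.2 in the LY-364947 pair and 1027 and 1184 in the CHIR-99021 pair. Fbln5, fibulin-5 of elastic fibres, had log2 fold changes of −2.70, −2.51 and −2.01 (SE 0.10 in each). Fmod, fibromodulin, had −5.15, −4.95 and −6.84. The exception with carbidopa and LY-364947 was Dcn, decorin, with log2 fold changes of 0.18 (adjusted p = 0.279) and 0.11 (adjusted p = 0.554).

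The other steps of collagen modification changed less uniformly. Of 10 genes of prolyl hydroxylation, 5 fell and 1 rose with carbidopa, 6 fell and 1 rose with LY-364947, and 5 fell with CHIR-99021. P4ha3, a catalytic subunit of prolyl 4-hydroxylase, had 93.8 and 98.3 CPM in MEF and at most 12.03 CPM in a treated library. Its log2 fold changes were −3.98, −3.69 and −3.04 (SE 0.13, 0.12 and 0.12). P3h1, a prolyl 3-hydroxylase, had −0.77, −0.71 and −0.49. P3h2, a relative of P3h1, rose with carbidopa (log2 fold change 1.32, SE 0.17, adjusted p = 0.000193) and LY-364947 (1.68, SE 0.17, adjusted p = 3.46e-05), and had 0.44 with CHIR-99021 (adjusted p = 0.0766). Of 8 genes of collagen glycosylation and chaperones, 3 fell under carbidopa, 5 under LY-364947 and 3 under CHIR-99021, and none rose. In either direction, 37.7%, 31% and 38.8% of all genes tested passed, so the count with carbidopa or CHIR-99021 is near that background. Fkbp10, a prolyl isomerase needed for lysyl hydroxylase 2 to work in the endoplasmic reticulum, had log2 fold changes of −0.83 with carbidopa (adjusted p = 0.000218), −0.79 with LY-364947 (adjusted p = 0.000302) and −0.31 with CHIR-99021 (adjusted p = 0.0456). Fkbp14, another such isomerase, had −0.91, −0.82 and −0.80. The general chaperone Hspa5 had −0.10 with carbidopa (adjusted p = 0.436), −0.35 with LY-364947 and −0.37 with CHIR-99021.

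Procollagen processing, which trims the chain ends before fibrils form, held 7 testable genes of 8. Under carbidopa 3 rose and 4 fell, and under each of the other compounds 3 rose and 3 fell. Tll1, a protease related to Bmp1, had log2 fold changes of −1.70, −1.53 and −2.75, and Adamts2, an N-propeptidase, had −1.07, −0.97 and −2.08. Adamts3, another N-propeptidase, rose, with 2.11, 2.27 and 1.73, from 1.26 and 1.36 CPM in MEF. Of 5 copper transporters and chaperones, Atp7a alone passed the test, in each comparison with MEF. Atp7a, the pump that loads copper onto secreted enzymes such as the lysyl oxidases, had 61.6 and 58.3 CPM in MEF, 66.8 and 108 in the carbidopa pair, 127 and 127 in the LY-364947 pair and 101 and 111 in the CHIR-99021 pair. Its log2 fold change was 0.54 with carbidopa (SE 0.18, adjusted p = 0.0394), where the libraries differed widely, 1.08 with LY-364947 (adjusted p = 0.00121) and 0.82 with CHIR-99021 (adjusted p = 0.00541). The copper chaperone Ccs had 0.60, 0.22 and 0.73, and the transporter Slc31a2 had −0.02, 0.08 and −0.25, none past the threshold.

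Of the other matrix crosslinkers, 2 of 3 could be tested. Tgm2, a transglutaminase that joins glutamine to lysine, rose from 19.8 and 17.6 CPM in MEF to 79.6 and 76.7 in the carbidopa pair, 87.0 and 86.8 in the LY-364947 pair and 159 and 145 in the CHIR-99021 pair. Its log2 fold changes were 2.07, 2.22 and 3.02 (SE 0.11 in each). Pxdn, the peroxidase that crosslinks type IV collagen, had −0.49 with carbidopa (adjusted p = 0.0262), −0.18 with LY-364947 (adjusted p = 0.394) and 0.02 with CHIR-99021 (adjusted p = 0.943).

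Lox and Plod2 are known to respond to TGF-beta and to low oxygen, so targets of both were listed beside them. Of 8 TGF-beta target genes, 7 fell and 1 rose with carbidopa and likewise with LY-364947, with medians of −2.11 and −2.07. With CHIR-99021 4 fell and 2 rose, with a median of −0.42. Ccn2, a secreted matrix protein listed under its older symbol Ctgf, had 414 and 374 CPM in MEF, 41.4 and 36.5 in the carbidopa pair, 26.2 and 37.2 in the LY-364947 pair and 182 and 173 in the CHIR-99021 pair. Its log2 fold changes were −3.34, −3.63 and −1.15, and those of Ltbp2, a latent TGF-beta binding protein homologue, were −3.10, −2.78 and −0.74. Both fell less with CHIR-99021 than with the other compounds: against carbidopa the log2 fold change was 2.19 for Ccn2 (adjusted p = 2.22e-05) and 2.36 for Ltbp2 (adjusted p = 7.63e-06), and against LY-364947 it was 2.48 (adjusted p = 1.46e-05) and 2.04 (adjusted p = 1.92e-05). Tgfbi went the other way, with −1.59, −1.52 and −4.24. In the 2 comparisons of CHIR-99021 with another compound, 7 of the 8 targets were higher with CHIR-99021 and 1, Tgfbi, was lower. Of all genes tested, 6.62% were higher and 8.08% lower against carbidopa, and 6.45% and 7.69% against LY-364947.

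Of 12 hypoxia target genes, 11 could be tested. Under carbidopa 5 rose and 2 fell, under LY-364947 also 5 and 2, and under CHIR-99021 5 and 3. Adm, adrenomedullin, had log2 fold changes of 2.76, 2.47 and 1.82, and Pdk1, a kinase that restrains pyruvate dehydrogenase, had 1.43, 1.65 and 0.79. Ndrg1 went the other way, with −2.87, −3.10 and −3.60. The list thus had no common direction, with medians of 0.16, −0.01 and 0.23.

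**Figure D5:**
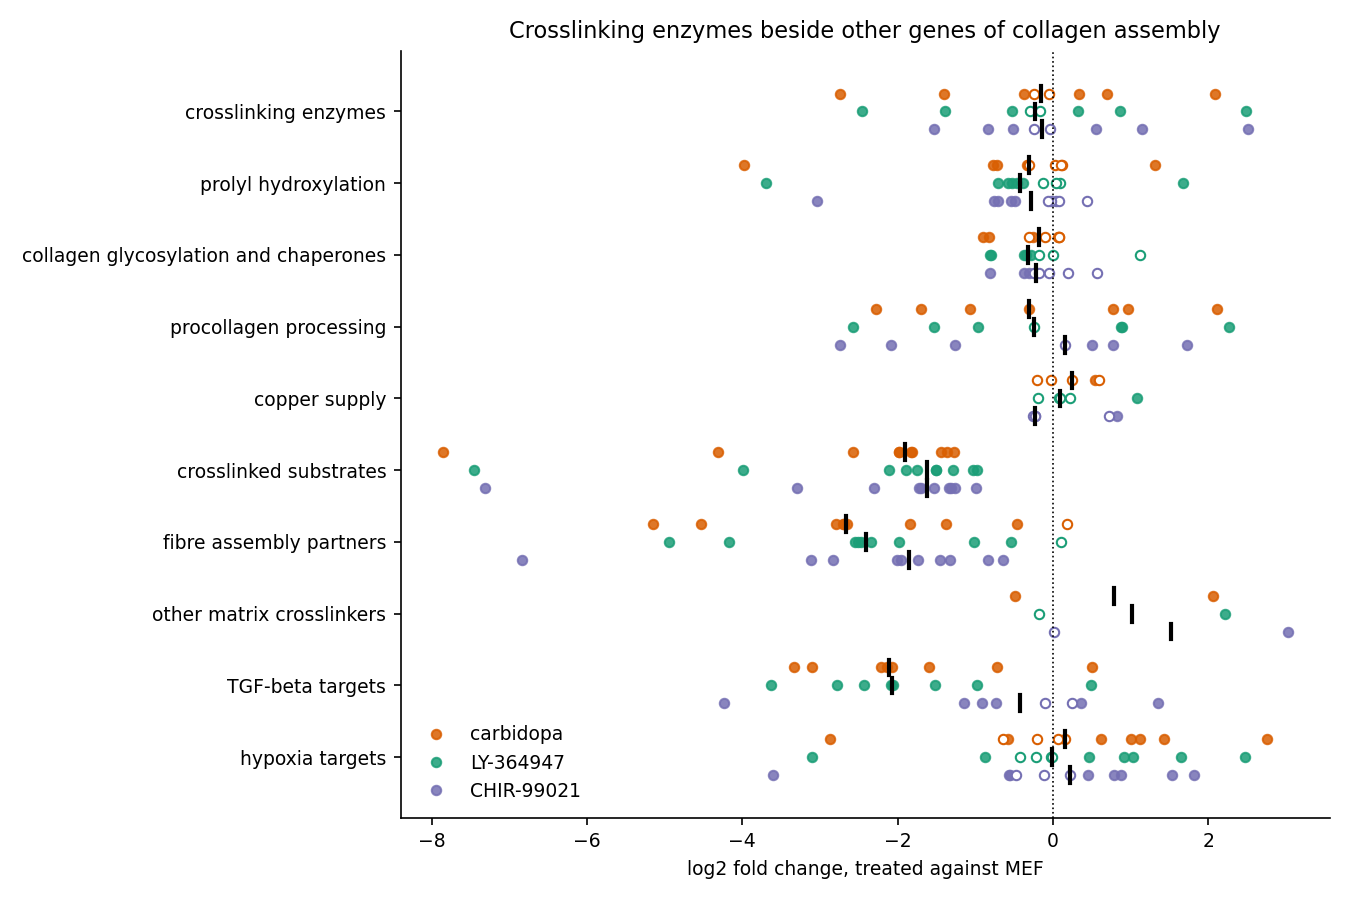
Log2 fold change against MEF (horizontal axis) of every tested gene in the crosslinking enzymes and 9 lists of related genes, coloured by treatment. Filled points passed an adjusted p of 0.05, open points did not, and black bars are medians. All points of the crosslinked substrates lie left of 0, while the crosslinking enzymes lie on both sides, from −2.75 to 2.51.

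For each of the 8 enzymes, the other genes whose log2 CPM followed it most closely over the 8 libraries were looked up among 9180 genes with a mean of at least 10 CPM. The libraries fall into 4 groups, so Pearson's r can largely reflect the order of the groups. For Loxl1, whose groups did not differ by the test, r can also reflect differences between libraries of a group. The genes named are the highest of this search, and r is given as a description. Lox was followed by Spry4 (r = 0.997) and Lrrc15 (r = 0.996), Loxl3 by Cfap43 (r = 0.998) and Smtn (r = 0.997), and Loxl2 by Specc1 (r = 0.998) and Mid1 (r = 0.997). Loxl4 was followed by Abl1 and Cgnl1 (r = 0.995 for each) and Plod2 by Stk39 (r = 0.991) and Fam133b (r = 0.972). For Plod1 the closest were Mfsd12 (r = 0.975) and Gpsm2 (r = 0.974), and for Plod3 Fam214b (r = 0.973) and Sept9 (r = 0.972). Loxl1, which varied least, had the lowest values, with Mfsd10 (r = 0.965) and Rabepk (r = 0.951).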

How the data were processed

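RNA-seq had been performed on 8 libraries, 2 for each of MEF, carbidopa, LY-364947 and CHIR-99021. The authors used STAR 2.4.2a to map reads to mm10 and featureCounts to count them per gene, and deposited the read counts as whole numbers without normalization. The annotation release is not given in the sources used here, and the labels and the paper name different library kits. Groups and replicate numbers were taken from the sample labels.

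The counts were analysed in R 4.3.3 with edgeR 4.0.16 (TMM, filterByExpr, quasi-likelihood test, no term but the group, 1 fit over 8 libraries, Benjamini-Hochberg adjustment over 15154 genes of 50578). The coefficient of biological variation was 11.0%. The SE is the absolute log2 fold change divided by the square root of F, and intervals are at 95%. Of the identifiers, 99.6% were found in GENCODE M21 (GRCm38), from which positions, exon lengths and coding sequences were taken. Promoters are from RefSeq. The reads carry no molecular identifiers, so they are not independent molecules. The fit was tested on simulated data, which cannot show whether the libraries of a group vary as separate cultures would.

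The 8 genes, the lists and the tests were chosen with earlier results of these data known. All 8 genes are named, with up to 3 genes of each list by the smallest p against MEF and Col1a1, Col1a2 and Eln. For each enzyme, the 2 genes with the highest correlation are named too. Htra2, Znhit1, Dcn, Gm21451 and Gm16867 were named after their values were seen. Alternatives were DESeq2 1.42.0, RLE size factors, no filter on low counts, at least 10 counts in every library, a replicate block, fits restricted to the compared groups, and each library left out in turn. The sum of Loxl2 with Gm21451 and Gm16867 was added after the data were seen.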

Additional observations from a re-analysis of the deposited data

How the results depend on the processing

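Every call of Lox, Loxl2, Loxl3 and Loxl4 against MEF kept its direction and stayed past the threshold in all alternatives run. Of the alternatives for single genes over the 6 comparisons, 601 kept direction and call, 41 lost the call, 18 gained it and 18 changed sign, the last all on values close to 0 that had not passed the test. In a fit of the compared groups alone, 2 genes passed for CHIR-99021 against carbidopa in place of 4. With 1 library left out, the number of the 8 genes passing against MEF was 4 to 6 for carbidopa, 4 to 7 for LY-364947 and 5 to 7 for CHIR-99021, and between treatments 0 to 3 for LY-364947 against carbidopa, 1 to 5 for CHIR-99021 against carbidopa and 1 to 5 for CHIR-99021 against LY-364947. A group left with 1 library was assumed to vary like the others. The causes were not tested.

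For LY-364947 against carbidopa, the log2 fold change of Plod2 (−0.0054) was 0.0072 with DESeq2, 0.0072 with RLE size factors, 0.0044 with at least 10 counts in every library and 0.0036 in the groups alone, and that of Loxl3 (0.0063) was −0.0091 with no filter. With 1 library left out, the log2 fold change went from −0.135 to 0.0213 for Loxl1 with carbidopa and from −0.142 to 0.0658 with CHIR-99021 against MEF, and from −0.0891 to 0.119 for Loxl1 with CHIR-99021 against carbidopa. For LY-364947 against carbidopa it went from −0.0832 to 0.0948 for Loxl3, −0.148 to 0.0403 for Plod1 and −0.102 to 0.0949 for Plod2. For Loxl4 with CHIR-99021 against LY-364947 it went from −0.134 to 0.214.

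Plod2 lost its calls with RLE size factors (adjusted p = 0.0542 with carbidopa and 0.0576 with LY-364947), and with carbidopa in the groups alone (adjusted p = 0.102), where Plod3 lost its call too (adjusted p = 0.0563). Loxl4 lost its call for CHIR-99021 against carbidopa with RLE (adjusted p = 0.0504) and in the groups alone (adjusted p = 0.117). In the groups alone, Plod1 with LY-364947 (adjusted p = 0.0100), Plod3 with CHIR-99021 (adjusted p = 0.0259) and Loxl2 for CHIR-99021 against LY-364947 (adjusted p = 0.0215) passed. RLE moved the median of all genes by at most 0.037 on the log2 scale. The replicate numbers are not shown to pair the samples, with correlations of same-numbered deviations from −0.161 to 0.128. A replicate block ended the calls of Plod2 with carbidopa (adjusted p = 0.0557) and LY-364947 (adjusted p = 0.0693), leaving 5 genes in each, and changed no other call of the 8 genes.

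Of all genes, 2 passed for LY-364947 against carbidopa, 16 with DESeq2, 329 with no filter, 0 in the groups alone and 2 to 3816 with 1 library left out. For CHIR-99021 against carbidopa 2227 passed, 1027 in the groups alone and 715 to 4632 with 1 library left out, and against LY-364947 2143, 3673 and 663 to 4228. Against MEF the ranges with 1 library left out were 3142 to 7996 for carbidopa, 2841 to 6519 for LY-364947 and 3433 to 7800 for CHIR-99021. The lowest count of the 8 genes was 208, for Loxl4 in MEF, and its SE against MEF, 0.14, was the widest.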
